A study of Danio rerio with 3 samples.

Results

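The 9 genes described here belong to antigen presentation in mural lymphatic endothelial cells (muLECs) of the adult zebrafish brain. They are the class I heavy chain genes mhc1zba and mhc1uba, the light chain genes b2m and b2ml, the peptide loading genes tap1, tapbp.1 and tapbp.2, and the invariant chain genes cd74a and cd74b. They were found by gene symbol or Ensembl ID, and all 9 were present among the 32105 genes of the count table. The choice was made with their levels in these libraries known, so their levels are given as a description and no test of them is read as a result.

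RNA was available from 1 group, wildtype adult fish carrying a lyve1 DsRed reporter, whose DsRed-positive brain cells were sorted after enzymatic dissociation. The group held 3 libraries of amplified RNA, each from a pool of 6 brains. There was no second cell population, no untreated or treated arm and no sort-negative control. Levels could therefore be compared between genes and between libraries only. The libraries held 36044297, 35168650 and 34307745 reads in genes (replicates 1, 2 and 3). At least 10 reads were found for 7472, 6117 and 9739 genes, the most in replicate 3. The lymphatic markers MRC1, stab2 and lyve1b averaged 4289, 615 and 605 CPM, the read count scaled to a common library depth. The leading pan-endothelial markers clec14a, MYCT1 and ramp2 averaged 373, 340 and 327 CPM. Of 11 pan-endothelial genes found, 9 were tested and 6 were called above the median gene by the edgeR test described below. Of all tested genes, 23.4% were called above. Another 2 of the 11 had at most 3 reads in every library. Not all markers of the labelled cell type were present throughout, with 614, 1213 and 1 reads of PROX1, 0, 3 and 0 reads of the endothelial cadherin gene cdh5 and 3, 1 and 1 reads of kdrl.

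MHC class I molecules display peptides from inside the cell. A heavy chain pairs with β2-microglobulin, peptides are cut by the proteasome, carried into the endoplasmic reticulum by the TAP transporter and loaded with the help of tapasin. The invariant chain CD74 accompanies MHC class II molecules instead, holds their groove closed, and is broken down by cathepsins and legumain in endosomes. Zebrafish class I genes fall into lineages, among them U, the classical genes of the core MHC, whose members differ between haplotypes, and Z and L. In mammals, lymphatic endothelial cells carry class I molecules and can carry class II molecules.

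Class I heavy chain reads came mostly from mhc1zba (ENSDARG00000036588), a Z lineage gene. It had 110849, 65133 and 141759 reads, or 2935, 2327 and 3447 CPM in replicates 1, 2 and 3, with a mean of 2903 CPM ± 561 (SD, n = 3). CPM values are scaled with TMM factors, which adjust for differences in composition between libraries. It was among the 40 genes with the most reads in every library, at rank 32, 40 and 20. The classical gene mhc1uba (ENSDARG00000075963) had 254, 262 and 751 CPM, with a mean of 423 CPM ± 285. Replicates 1 and 2 were close together for mhc1uba and replicate 3 was the high one. Without replicate 3 its mean was 258 CPM.

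The annotated heavy chain genes of a wider class I list placed these values. Of 32 listed symbols 19 were found, and these took 0.389%, 0.228% and 0.589% of all reads in replicates 1, 2 and 3. The gene mhc1zba held 79.1%, 81.2% and 70.2% of the heavy chain reads, and mhc1uba held 6.85%, 9.15% and 15.3%. A second Z lineage gene, mhc1zda, held 11.8%, 8.89% and 10.3%. The widest of the Wilson intervals at 95% confidence for these shares was 0.27 percentage points to either side. The remaining genes held little, led by the L lineage gene mhc1lca with 1453, 12 and 3801 reads, and 6 of the 19 had no read in any library. These are shares of reads, not of transcripts, since no gene lengths entered the values. The ratio of mhc1zba to mhc1uba reads, which length cannot move between libraries, was 11.5, 8.87 and 4.59.

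Of the other 17 heavy chain genes, 8 had enough reads to be tested, at least 10 in 2 or more libraries. An edgeR quasi-likelihood test asked of each gene whether it lay above or below the median tested gene, and genes passed where p, adjusted by Benjamini-Hochberg, was under 0.05. Of the 8, mhc1zda passed (23.4% of all 7111 tested genes lay above), at 399 CPM ± 129 and 5.0 ± 0.31 over the median gene on the log2 scale (SE, edgeR adjusted p = 2.76e-11). The median log2 ratio of the 8 was -0.20, and it was 0.22 over all tested genes. The U lineage gene mhc1uca did not pass, with 70, 107 and 2157 reads. In 6 of the 8, replicate 3 had the highest CPM, as it did in 29.6% of all tested genes.

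The light chains of class I were led by b2ml (ENSDARG00000015887), the β2-microglobulin-like copy. It had 788, 672 and 1631 CPM in replicates 1, 2 and 3, with a mean of 1030.3 CPM ± 524 (SD, n = 3). The gene b2m (ENSDARG00000053136), β2-microglobulin itself, had 112, 208 and 337 CPM, with a mean of 219 CPM ± 113. Replicate 3 was the highest library for both copies, while the lowest was replicate 2 for b2ml and replicate 1 for b2m. Of the reads of both copies, b2ml held 87.6%, 76.4% and 82.9%. The log2 ratio of b2ml to b2m reads was 2.82, 1.69 and 2.28, a mean of 2.26 ± 0.56 (SD, n = 3), so b2ml had more reads in 3 of 3 libraries. Summed heavy chain reads were 4.12, 3.26 and 2.49 times the summed light chain reads, and this ratio was lowest in replicate 3.

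**Figure D1:**
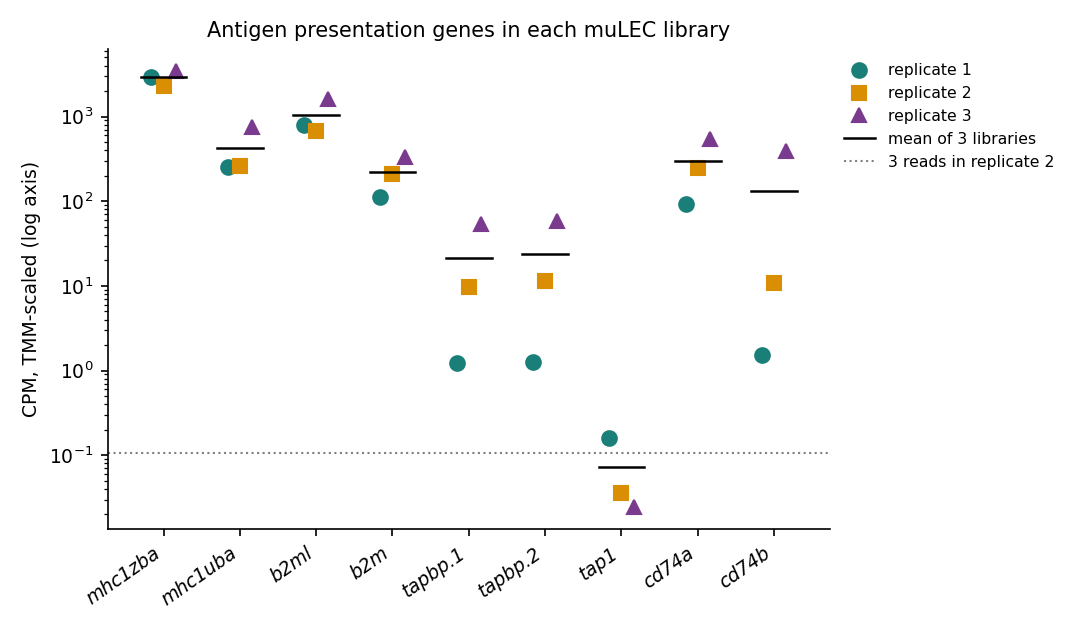
Level of each of the 9 genes in each library (points, CPM scaled with TMM factors, log axis) with the mean of 3 libraries (bars), and the level of 3 reads in replicate 2 (dotted line). In 8 of the 9 genes replicate 3 is the highest point, and tap1 lies around the level of 3 reads.

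**Figure D2:**
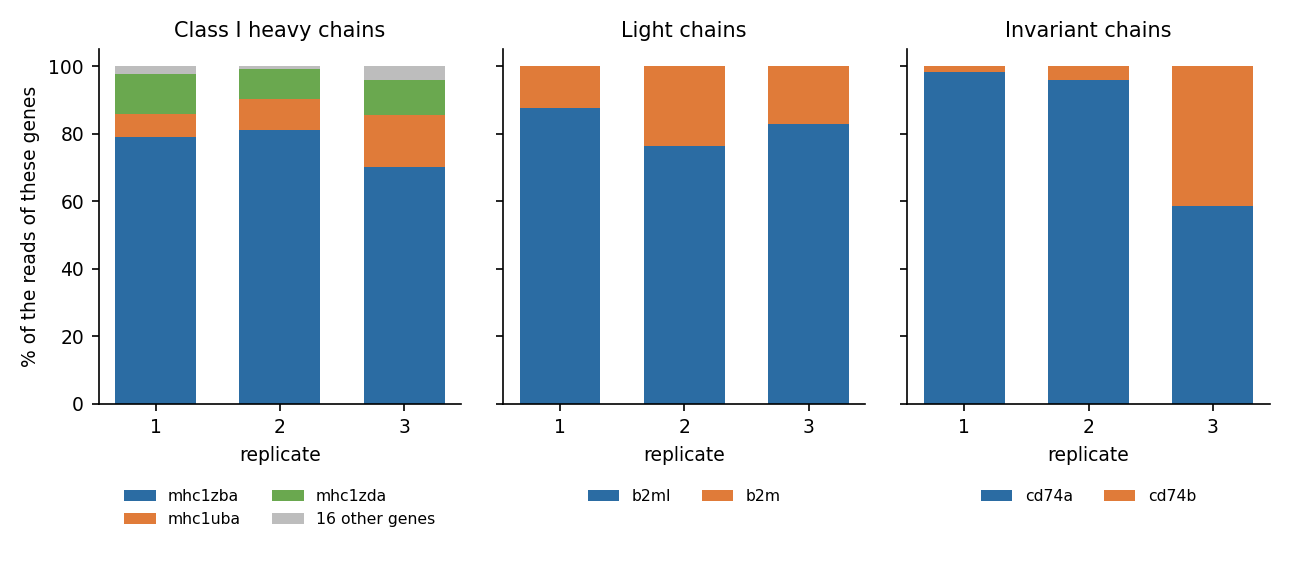
Share of reads (%) that each gene took within the class I heavy chains, the light chains and the invariant chains, by replicate. The gene mhc1zba takes 70.2% to 81.2% of heavy chain reads and b2ml 76.4% to 87.6% of light chain reads, while cd74b reaches 41.5% of invariant chain reads in replicate 3.

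The peptide loading genes were the lowest of the 9. The transporter subunit gene tap1 (ENSDARG00000079766, written TAP1 in the symbol table) had 6, 1 and 1 reads. A floor of 3 reads corresponded to 0.0794, 0.107 and 0.0729 CPM, so tap1 was at or under the floor in replicates 2 and 3 and was not tested. The genes of its partner subunit were as sparse or uneven, with 7, 0 and 71 reads of tap2a and 1, 809 and 2 reads of tap2t. The tapasin gene tapbp.1 (ENSDARG00000079402) had 47, 274 and 2218 reads, or 1.24, 9.79 and 53.9 CPM, and averaged 21.7 CPM ± 28.3 (SD, n = 3). The second tapasin gene, tapbp.2 (ENSDARG00000045011), had 48, 322 and 2421 reads, or 1.27, 11.5 and 58.9 CPM, and averaged 23.9 CPM ± 30.7. Both were low in replicate 1 and high in replicate 3, by 43.3 and 46.3 times.

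Reads of tapbp.1 and tapbp.2 kept close to each other in each library, at 0.98, 0.851 and 0.916 reads of tapbp.1 for each read of tapbp.2. Whether the copies shared reads was not tested, because their sequences and the handling of multiply mapped reads were not available here. In the RefSeq annotation of GRCz12tu, a later assembly than the one used for counting, tapbp.2 was the direct neighbour of mhc1uba. A single gene lay between tapbp.1 and tapbp.2, the class I gene mhc1uka, which carries mhc1uca as a synonym. All of mhc1uba, mhc1uca, tapbp.1 and tapbp.2 had their highest level in replicate 3. All 8 tested genes of the 9 were highest there as well, as were 29.6% of all tested genes. Whether position on the chromosome had a part in this was not tested. Without replicate 3, tapbp.1 averaged 5.52 CPM and tapbp.2 averaged 6.39 CPM.

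The invariant chain genes differed from each other in how far they varied between libraries, by 253-fold for cd74b and 5.85-fold for cd74a. The gene cd74a (ENSDARG00000009087) had 3530, 6890 and 22496 reads, or 93.5, 246 and 547 CPM in replicates 1, 2 and 3, with a mean of 296 CPM ± 231 (SD, n = 3). The gene cd74b (ENSDARG00000036628) had 1.54, 10.9 and 388 CPM, with a mean of 134 CPM ± 221. Each library stood apart from the others for both copies, and the order of the libraries was the same, with replicate 3 highest. The copies did not change in step: cd74b supplied 1.62%, 4.25% and 41.5% of the reads of both, and cd74a had 59.8, 22.4 and 1.41 times as many reads as cd74b. The mean log2 ratio of cd74a to cd74b was 3.63 ± 2.80. Without replicate 3, cd74a averaged 169.8 CPM and cd74b 6.23 CPM.

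The class II chain genes, which the choice of the 9 genes did not use, stood beside the invariant chain. Their list, too, was drawn up with earlier results of these data known. Of 18 listed class II symbols 7 were found and 4 were tested. The α chain gene mhc2daa had 956, 2656 and 15002 reads and averaged 162 CPM ± 179, which lay 3.69 ± 0.54 over the median gene on the log2 scale (SE, edgeR adjusted p = 1.26e-06). The β chain gene mhc2dab had 1906, 582 and 8974 reads and averaged 96.5 CPM ± 106, which lay 2.93 ± 0.54 over it (edgeR adjusted p = 3.61e-05). Without replicate 3 neither passed, at log2 ratios of 1.06 and 0.44 and means of 60.1 and 35.6 CPM. Of all 1664 genes called above and still tested without replicate 3, 937 stayed called. The genes mhc2dga, with 3, 126 and 771 reads, and mhc2dgb, with 5, 1130 and 878 reads, did not pass. Summed cd74a and cd74b reads were 1.25, 2.22 and 1.60 times the summed reads of mhc2daa and mhc2dab, a pair chosen after their values were seen. That ratio stayed above 1 in every library, and cd74a supplied 98.4%, 95.7% and 58.5% of its invariant chain reads. It leaves out mhc2dga and mhc2dgb, and whether invariant and class II chains change together was not tested.

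Across the 9 genes, 8 passed the filter on low counts. All 8 were highest in replicate 3, with TMM scaling, with plain library size and with DESeq2 size factors. Of all 7111 tested genes, 29.6% were highest in replicate 3 with TMM scaling, 39% with plain library size and 25% with DESeq2 size factors. By mean CPM the genes ran in the order mhc1zba, b2ml, mhc1uba, cd74a, b2m, cd74b, tapbp.2, tapbp.1 and tap1, without division by length. That order held in 3 of 3 libraries for neighbours down to cd74a. It held in 2 of 3 libraries for cd74a over b2m, for b2m over cd74b and for cd74b over tapbp.2, and in 3 of 3 again for the last neighbours. Against the median gene, 6 of the 9 were called above it and 0 below by edgeR, where 23.4% of all tested genes were called above. Nothing is read from that count, since the genes were chosen from these levels. Among the 6, cd74b lost the call with DESeq2, with limma-trend and with 10 reads required in all 3 libraries, and lay below the median gene without replicate 3 (log2 -2.23, not passed). At an unadjusted p under 0.05 edgeR placed 0 of the 8 tested genes below, and 250 of all 7111. DESeq2 and limma-trend called 0 of the 8 below. Of all 7111, limma-trend called 1042 below and DESeq2 called 0, so the 0 of DESeq2 carries no information. Nothing is read from these counts either.

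Spread between libraries also set the genes apart from each other. The coefficient of variation was 0.193 for mhc1zba, lower than that of most of the 37 tested genes within 2-fold of its level, of which 10.8% varied less. It was 0.517 for b2m and 0.508 for b2ml, where 75.3% and 74.2% of genes of similar level varied less. For mhc1uba it was 0.674, with 91.5% varying less, and for cd74a it was 0.781, with 95.6% varying less. For cd74b it was 1.65, and 99.9% of 771 genes of similar level varied less. The tapasin genes, at 1.31 and 1.29, varied more than 88.1% and 88.9% of genes of their low level.

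**Figure D3:**
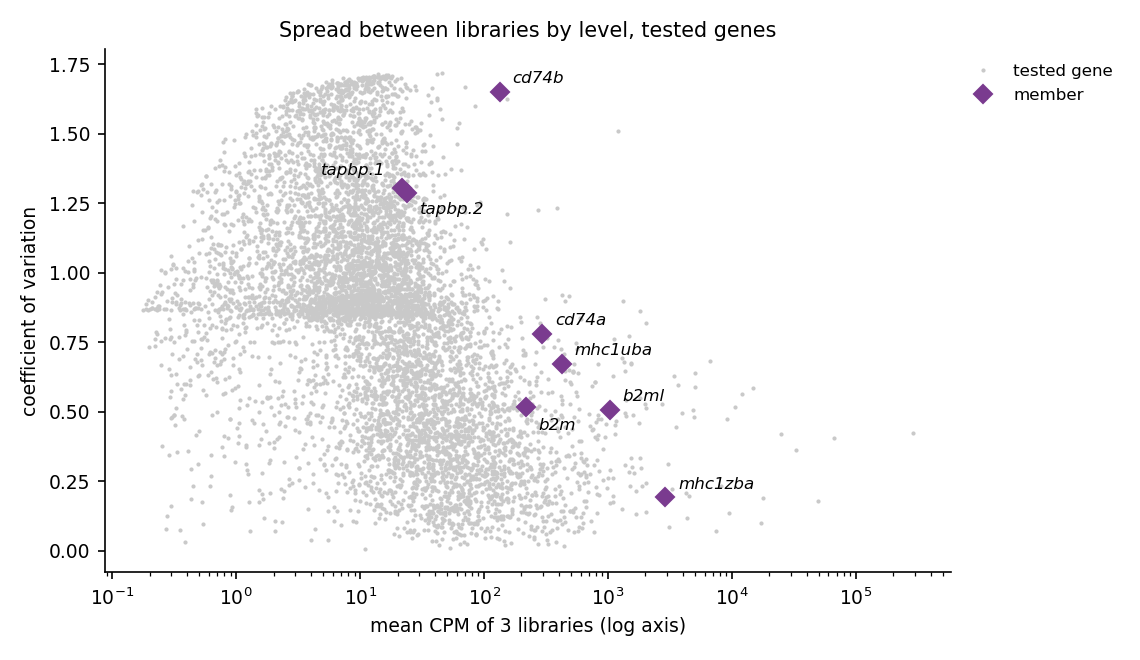
Coefficient of variation over 3 libraries against mean CPM (log axis) for every tested gene (grey) and for the 8 tested antigen presentation genes (diamonds). The gene cd74b lies at 1.65, near the top of the genes of its level, and mhc1zba at 0.193, near the bottom.

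Genes whose levels over the libraries ran most like those of a member were sought among 1352 other tested genes with a symbol and at least 50 CPM. Likeness was the distance between log2(CPM + 1) profiles over 3 libraries, each centred on its own mean, and so few libraries leave many profiles alike. Nearest to cd74a were ms4a17a.8 at a distance of 0.19, LECT2 at 0.32 and GAS6 at 0.38. Nearest to cd74b was the class II gene mhc2daa, at 2.69, followed by ARRB2 and LECT2, so no gene came close to it. For b2m the nearest were SLC7A8, g0s2 and AKR1A1, at 0.08 to 0.14, and 36 genes lay within 0.5. For mhc1zba they were sdcbp2, srgn and ubb, at 0.05 to 0.07, and 215 genes lay within 0.5.

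The rest of the antigen presentation pathway was described from 12 lists of 168 symbols, of which 118 genes other than the 9 were found and 62 tested. By edgeR, 20 of the 62 (32.3%) were called above, where 23.4% of all tested genes were. By edgeR 0 were called below, with 2 below at an unadjusted p under 0.05. Of all tested genes, edgeR called 1.24% below. With limma-trend 4 of the 62 were called below, and 1042 of all 7111 tested genes. DESeq2 called 0 of the 62 and 0 of all 7111 below, so its 0 carries no information. Without replicate 3 the share above was 23.7% (9 of 38) for the pathway genes and 21.1% for all tested genes. The median log2 ratio of the 62 was 0.93, beside 0.22 for all tested genes.

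Over all tested genes 23.4% were called above, and in the peptide loading list 3 of the 6 other tested genes were. They encode chaperones of glycoprotein folding that also act on class I chains: calr3a, a calreticulin, at 92.4 CPM ± 34.7 (log2 2.89 ± 0.41, edgeR adjusted p = 3.08e-06), CANX, calnexin, at 76.2 CPM ± 31.1, and PDIA3 at 40.9 CPM ± 25.8. The PDIA3 call was lost in 11 of 12 alternatives, among them each left-out library, and that of CANX without replicate 1 (log2 1.38). The tapasin-related gene tapbpl, with 45, 4 and 1963 reads, did not pass. Of 5 tested trimming peptidase genes, erap2, an aminopeptidase of the endoplasmic reticulum, was called above at 60.7 CPM ± 3.87 (log2 2.30 ± 0.48, edgeR adjusted p = 0.00026). Its level was even, and leaving out replicate 3 ended the call (log2 1.12, 59.5 CPM).

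Of 7 tested immunoproteasome genes, 3 were called above, where 23.4% of all tested genes were. These were the proteasome activator genes PSME2, at 87.6 CPM ± 75.8, and PSME1, at 47.0 CPM ± 37.5, and the catalytic subunit gene PSMB10, at 44.6 CPM ± 30.3. Without replicate 3 all 3 lost the call, and the means were 47.6, 26.7 and 30.8 CPM. PSMB10 lost it without replicate 1 as well (log2 1.09). Of all genes called above and still tested, 937 of 1664 kept the call without replicate 3 and 1165 of 1666 without replicate 1. The inducible catalytic subunit genes PSMB8 and PSMB9 did not pass, with 12, 4 and 1288 reads of PSMB8 and 2, 1345 and 814 reads of PSMB9. Replicate 3 was the highest library for 6 of the 7 immunoproteasome genes and for 0 of the 4 standard counterparts, PSMB5, PSMB6, PSMB7 and PSME3. These counts were the same with plain library size and with DESeq2 size factors, and over all tested genes the share highest in replicate 3 was 29.6% with TMM scaling, 39% with plain library size and 25% with DESeq2 size factors. At 10.9 to 26.1 CPM, 0 of the 4 standard genes were called by edgeR or limma-trend, and 0 reached an unadjusted p under 0.05 by edgeR, limma-trend or DESeq2, which gave none of them an adjusted p.

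**Figure D4:**
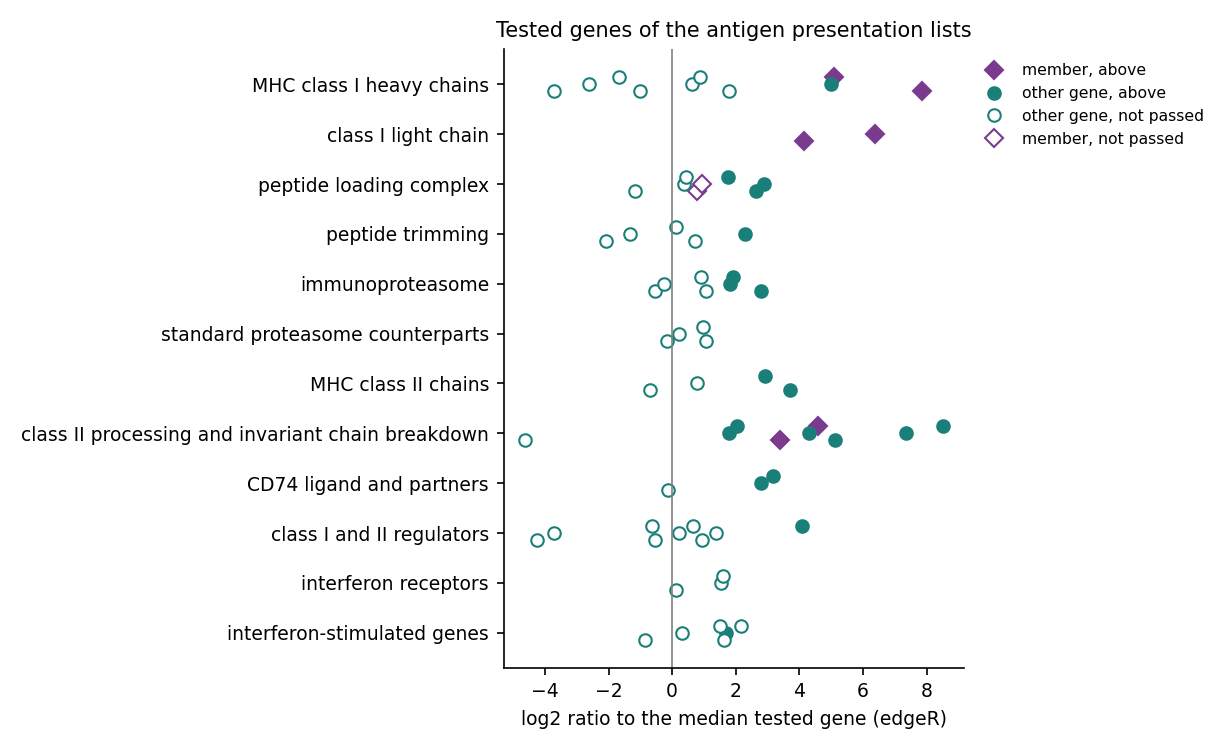
Log2 ratio to the median tested gene (edgeR) of each tested gene in the antigen presentation lists, with the 8 tested members as diamonds and other genes as circles, filled where the gene was called above. The class II processing list reaches 8.52, while 8 of 9 regulators and 3 of 3 interferon receptor and kinase genes are open circles.

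Genes of the proteases that break down the invariant chain were among the high ones. The class II processing list held 7 tested genes other than cd74a and cd74b. Of these, 6 were called above, where 23.4% of all tested genes were, and the median log2 ratio of the 7 was 4.29. The cathepsin L gene ctsla averaged 4510.4 CPM ± 888 (log2 8.52 ± 0.34, edgeR adjusted p = 4.33e-16) and LGMN, legumain, 2030.3 CPM ± 496 (log2 7.36 ± 0.31, edgeR adjusted p = 8.3e-15). The cathepsin genes CTSB and CTSH averaged 428 CPM ± 226 and 244 CPM ± 66.9. The cathepsin S copy ctss2.1 averaged 43.0 CPM ± 0.859, and MARCHF8, a ubiquitin ligase that in mammals removes class II molecules from the surface, 49.2 CPM ± 49.5. Leaving out replicate 1 or replicate 3 ended the call of ctss2.1 (log2 0.95 and 0.66). That of MARCHF8 ended whichever library was left out, and its mean was 20.7 CPM without replicate 2. The proteases among these genes serve lysosomes in general. Of the 7 genes, 1 was highest in replicate 3 with TMM scaling and 2 with plain library size. Of all tested genes, 29.6% and 39% were.

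Of the ligands and partners of CD74 known from mammals, ddt, a relative of MIF, was called above at 109 CPM ± 51.9. A chemokine receptor gene written CXCR4 was too, at 83.4 CPM ± 72.0, while another gene of that symbol had no read. The mean of the called one was 47.4 CPM without replicate 2, and leaving out replicate 3 ended its call (log2 1.5). MIF, the ligand, did not pass, with 531, 3 and 839 reads. The co-receptor genes cd44a and cd44b had no read in any library, which allows up to 3 reads in each.

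Among regulators, the class II transactivator gene ciita and its class I relative nlrc5 had no read in any library, again allowing up to 3 reads in each. Of 9 tested regulator genes 8 did not pass by edgeR. The interferon regulatory factor genes irf1b and irf8 had 1, 8 and 324 reads and 1, 0 and 1 reads. Of 3 tested interferon receptor and kinase genes, crfb1, JAK1 and ifngr1l, 0 were called by edgeR, limma-trend or DESeq2, at 36.9, 34.9 and 13.7 CPM, with 2 above at an unadjusted p under 0.05 by edgeR. The receptor gene ifngr1 had no read. Of 6 tested interferon-stimulated genes 1 was called above, where 23.4% of all tested genes were. It was SOCS1, an inhibitor of this signalling, at 40.3 CPM ± 4.67. That call ended in 9 of 12 alternatives, including each left-out library. Of the 23 interferon-stimulated genes found, 4, 8 and 14 had over 3 reads in replicates 1, 2 and 3, and their summed level was 88.1, 274 and 399.8 CPM. Over all genes, at least 10 reads were found for 7472, 6117 and 9739, also the most in replicate 3. That is a higher threshold than over 3 reads, so it is no direct background for the 4, 8 and 14 genes. Of the 6 tested interferon-stimulated genes, 3 were highest in replicate 3 with TMM scaling, beside 29.6% of all tested genes.

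Summed markers of other cells were highest in replicate 3 for some lists and in replicate 2 for others. Replicate 3 was the library with the most genes of at least 10 reads. Over all genes, at least 10 reads were found for 7472, 6117 and 9739 in replicates 1, 2 and 3. The marker counts that follow use over 3 reads instead, for which no count over all genes is given. Of 25 macrophage and microglia genes, 10, 12 and 18 had over 3 reads in replicates 1, 2 and 3, and their summed level was 2530.5, 2307 and 4118 CPM. Much of that sum was apoeb and CD63, which other cells also express. The leukocyte gene ptprc had 8, 1 and 237 reads, csf1ra 0, 3 and 102, CORO1A 0, 0 and 466 and c1qa 0, 0 and 480. Of these 25 genes, 3 had no read in any library, among them LCP1 and P2RY12. Of 11 T and NK cell genes, 2, 1 and 6 had over 3 reads, with 0, 0 and 67 reads of lck, and the summed level was 26.1, 0.25 and 45.6 CPM. Of 9 B cell genes 7 had no read, and cd79a had 0, 435 and 90 reads. Of 8 dendritic cell genes 4 had no read, and the summed level was highest in replicate 2, at 59.8 CPM. Also highest in replicate 2 were the oligodendrocyte sum, at 674, 2391 and 783 CPM, and the mural cell sum, at 164, 694 and 96.2 CPM. So was the neuron sum, at 29.3, 87.6 and 44.2 CPM. The radial glia sum was highest in replicate 2 with TMM scaling and in replicate 3 with plain library size. The fibroblast and meningeal sum was highest in replicate 3, at 69.6, 90.0 and 158 CPM. So was the neutrophil sum, at 68.4, 42.7 and 76.4 CPM, but with DESeq2 size factors replicates 1 and 3 were nearly equal (69.5 and 69.9 CPM). The thrombocyte and erythrocyte sum was very low, at 0.397, 0.0714 and 2.72 CPM. Of its 7 genes 4 had no read and 0 were tested.

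The order of the libraries in the lymphatic and pan-endothelial sums depended on the scaling. With TMM scaling they were 5884, 7483 and 5849 CPM for the 12 lymphatic genes and 1722, 1554 and 1378 CPM for the 11 pan-endothelial genes. With plain library size they were 6166, 5956 and 7012 CPM, highest in replicate 3, and 1804, 1237 and 1652 CPM, lowest in replicate 2. Most of the lymphatic sum was MRC1, at 3790, 5318 and 3759 CPM with TMM scaling, so that sum says little of the other lymphatic genes. The macrophage and microglia, immunoproteasome and interferon-stimulated sums were highest in replicate 3 under TMM scaling, plain library size and DESeq2 size factors. What part other cells had in the levels of cd74a, cd74b and the class II genes was not tested. In bulk RNA, more cells of a type and more RNA per cell cannot be told apart.

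**Figure D5:**
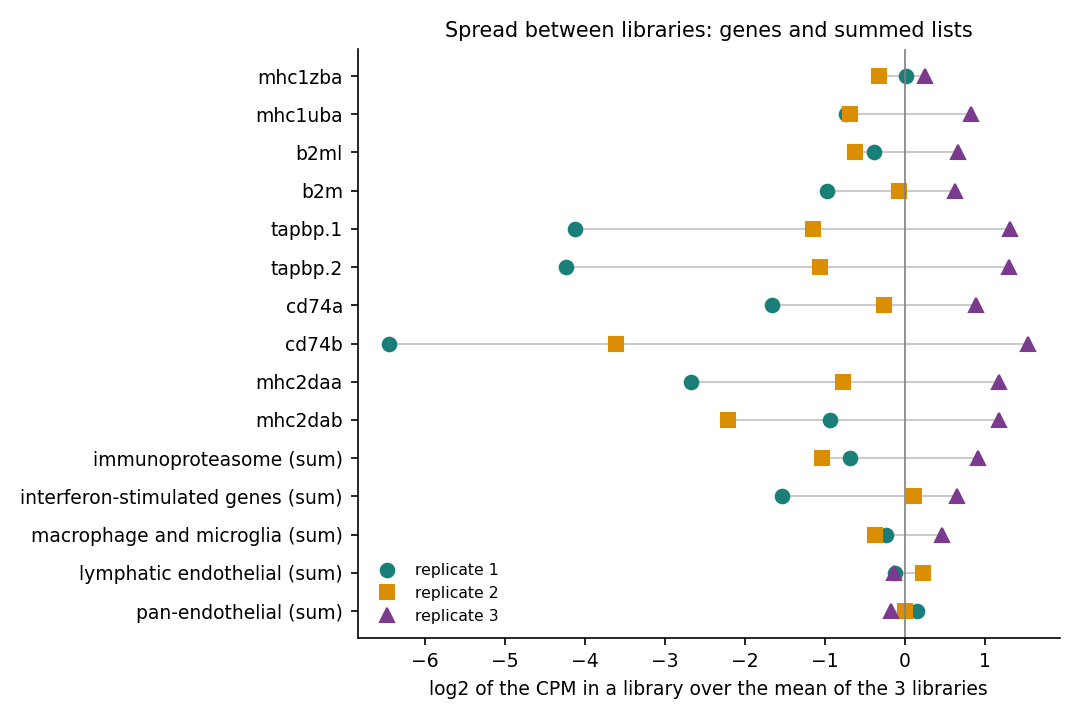
CPM in each library over the mean of 3 libraries (log2) for 8 antigen presentation genes, 2 class II genes and the summed CPM of 5 lists. Replicate 3 is the highest point for every gene shown and for the immunoproteasome, interferon-stimulated, and macrophage and microglia sums. The lymphatic sum, most of it MRC1, runs from 5849 to 7483 CPM and the pan-endothelial sum from 1378 to 1722 CPM, all with TMM scaling.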

How the data were processed

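Bulk RNA-seq of 3 muLEC libraries was analysed. The authors deposited raw counts per Ensembl gene, and a YuGene score (a cumulative proportion within a library) that the deposited table gives for the same genes and that served only to check ranks. Per the submitters' processing notes, the build was GRCz10 and the tools included bcl2fastq and R 3.2.2. For aligner, counter and strand setting, the sources used here name nothing. File columns carry another cell name and were matched to samples by replicate number.

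Genes with at least 10 reads in 2 libraries were tested with edgeR 4.0.16. The intercept of a quasi-likelihood fit was tested, with the offset set by the median count in a library, the test being written out because glmQLFTest needs more than 1 design column. Adjusted p-values of the main edgeR fit are Benjamini-Hochberg over 7111 genes. Those of each alternative are over the genes it tested, such as 4444 without replicate 3, and DESeq2 gave some genes none. In counts simulated for these genes, 94% of 50 genes placed 16 times above the median were called and 54% of 50 placed 4 times above. Of genes placed lower, 6% of 50 at 0.25 and 18% of 50 at 0.0625 of the median were called. Of 200 placed at the median, 2.5% were called. DESeq2 1.42.0 and limma 3.58.1 were alternatives. Ratios used reads plus 1.

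Members and lists were chosen with earlier results of these data known. Symbols came from a table pairing IDs with names, matched ignoring case, or by the capital stem without a final a or b. Named were all members, the called pathway genes (at most 4 a list), up to 3 leading cell markers and a set of regulators and markers, of which crfb5 and mpeg1.1 were not matched. Genes outside this rule, such as mhc1uca, tap2t, mhc2dga, mhc2dgb, tapbpl, cd44a, cd44b, CORO1A, c1qa, LCP1, P2RY12, PROX1, cdh5, kdrl and the standard proteasome genes, were named after their values were seen, as was the grouping by highest library. The pools of brains are separate, but no sort dates are given. Reads amplified without molecular tags are not independent molecules, so intervals and floors cover counting error only. Some listed genes are not reported here by name.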

Additional observations from a re-analysis of the deposited data

How the results depend on the processing

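With the filter of 10 reads in all 3 libraries, 12 pathway genes and 1040 of all genes stood above the median gene, against 20 and 1666 as reported, and with no filter 73 and 8404 did. Leaving out 1 library gave 9 to 19 pathway genes and 937 to 1580 of all genes, the fewest without replicate 3. With fewer libraries fewer low genes pass the filter, so the reference level rises. The median log2 shift of genes called above was -0.85 without replicate 1, -0.59 without replicate 2 and -1.07 without replicate 3. Of those still tested, 1165 of 1666, 1457 of 1664 and 937 of 1664 stayed called. The other settings (DESeq2 and limma-trend tests, other scalings, removal of counts under 2% of a gene's highest library) gave 17 to 19 pathway genes, and removal of low counts and the TMM-scaled reference level were chosen after seeing the data. Without 1 library the log2 ratio to the median gene ran from -2.23 to 3.57 for cd74b, from -0.10 to 1.61 for PSME1, from -2.41 to 0.75 for tapbp.1 and from -2.20 to 0.87 for tapbp.2, and the direction turned for all 4 without replicate 3 (cd74b adjusted p = 0.362, edgeR). It also turned for tapbp.1 and tapbp.2 with 10 reads in all 3 libraries (-0.30 and -0.17) and with limma-trend (-0.28 and -0.16). The call of cd74b was also lost with DESeq2, limma-trend and the filter of 10 reads in all 3 libraries, and DESeq2 gave tapbp.1 and tapbp.2 no adjusted p. The causes were not tested. Scaled by library size without malat1 and mitochondrial genes, mhc1zba averaged 4464 CPM, b2ml 1603 CPM and b2m 334 CPM. Without 1 library the mean log2 ratio ran from 2.49 to 5.20 for cd74a to cd74b, 1.98 to 2.55 for b2ml to b2m, 2.67 to 3.34 for mhc1zba to mhc1uba, -0.18 to -0.08 for tapbp.1 to tapbp.2, 1.51 to 1.87 for heavy to light chains and 0.50 to 0.92 for invariant to class II chains. With 0.5 or 10 reads added these ratios moved by less than their SD. Reads per coding length were not run. No paired analysis was possible because there was a single group.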
